A study of Mus musculus with 4 samples.

Results

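The data described here are the reads of 10 integrin subunit genes, Itgal, Itgam, Itgax, Itgb2, Itga4, Itga5, Itga6, Itgav, Itgb1 and Itgb5, in mouse peritoneal macrophages. They were chosen by name, as the rows of the gene count table that carry these symbols, and are 10 of the 54532 genes of the table and 10 of its 26 integrin subunit genes. The series asked what the aryl hydrocarbon receptor (AHR), a ligand-activated transcription factor, does in macrophages that meet signals from breast cancer cells. Per the labels, wild-type (WT) macrophages from peritoneal fluid received either normal medium (0% 4T1) or medium with 30% 4T1-CM, the conditioned medium of the mouse mammary tumour cell line 4T1, and either DMSO, the solvent, or CH223191 at 10 µM, an inhibitor of AHR. Each of the 4 combinations is 1 library, and the labels give no treatment time. The study's methods describe peritoneal macrophages as cells that thioglycollate broth had drawn into the peritoneum of BALB/c mice, left to adhere before treatment, so all groups share that elicitation, and neither the labels nor the methods used here say how many animals a library holds.

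Integrins are receptors of an α and a β chain that span the membrane and tie the cell to other cells or to the extracellular matrix, with the cytoskeleton on the inside. On leukocytes the β2 chain (CD18, Itgb2) pairs with αL (CD11a, Itgal), αM (CD11b, Itgam), αX (CD11c, Itgax) or αD (Itgad), and these pairs bind ICAMs, the complement fragment iC3b and fibrinogen during adhesion and phagocytosis. The β1 chain (Itgb1) pairs with many α chains, among them α4 (Itga4), α5 (Itga5), α6 (Itga6) and αV (Itgav), which bind VCAM-1, fibronectin, laminins and RGD-bearing matrix proteins, and αV also pairs with β5 (Itgb5). In peritoneal macrophages αM is a standard surface marker, while αX is best known from dendritic cells and alveolar macrophages.

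With 1 library a group, no pair of libraries can be tested, so values are given as reads and as log2 ratios of counts scaled by TMM (a factor per library that centres most genes), each with a 95% interval (exact, Clopper-Pearson) for how the reads divide between both libraries. The interval covers counting error only and compares libraries, not conditions. The test that the design allows is an edgeR quasi-likelihood fit with medium and inhibitor as additive terms over all 13715 genes that reached 10 reads in any library, which leaves 1 residual degree of freedom. All 10 subunits were among these genes. "Rose" and "fell" are used for genes that passed this fit at a Benjamini-Hochberg adjusted p (FDR) of 0.05. When a 4T1-CM library was left out, nearly all calls in the table were lost. Without that of 4T1-CM and DMSO no gene was called, and without that of 4T1-CM and CH223191 the edgeR fit called 205 genes, of which Itgal, C3, Tgfbi, Thbs1 and Dab2 were integrin subunits, ligands or adaptors listed here. The libraries held 15535405 to 17557127 reads. The 8 macrophage markers checked (such as Adgre1, Csf1r and Lyz2) were all well detected and summed to 14500 CPM (counts per 1000000 reads of the scaled library) in normal medium with DMSO, 18590 with CH223191, and 40840 and 43720 in 4T1-CM likewise. The 5 T cell markers had no read in any library, and dendritic cell markers summed to 1.13 to 3.77 CPM. Reads of mitochondrial genes were 0.633%, 1.17%, 1.76% and 1.79% of the libraries in the same order. Ratios moved with gene length in every comparison but that of the 4T1-CM libraries with each other. For 4T1-CM against normal medium the median log2 ratio was -0.16 with DMSO and -0.37 with CH223191 in the 1495 genes of up to 2000 bases, and 0.10 and 0.22 in the 1858 genes longer than 8000 bases (genes with a mean of at least 50 reads). For CH223191 against DMSO the same medians were 0.21 and -0.09 in normal medium and 0.01 and 0.03 in 4T1-CM. Long genes were thus lower in both normal medium libraries, most so with CH223191, and values with this trend removed, an alternative chosen after seeing the data, are given beside those subunits whose media ratios it moved by more than 1.5 times or turned, and beside Itgb2.

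**Figure D1:**
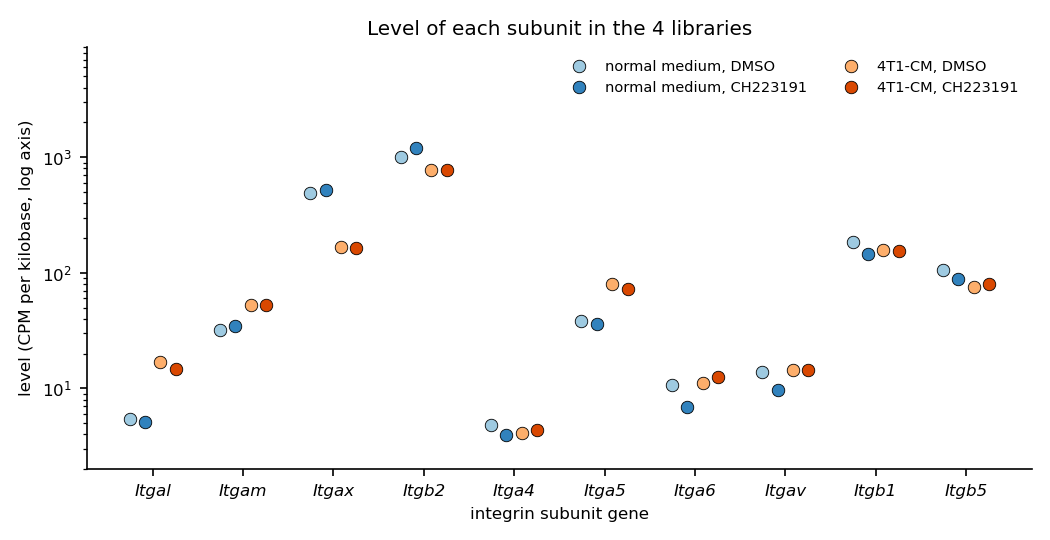
Level of each of the 10 subunits in the 4 libraries, in CPM divided by the gene's length in kilobases, on a log axis, with 1 point per library and no error bar. Itgax is lower and Itgal, Itgam and Itga5 are higher in both 4T1-CM libraries, while Itga4, Itga6 and Itgav lie at 3.98 to 14.4 throughout.

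Itgam and Itgax are neighbours on chromosome 7, on the same strand and 11055 bases apart, and they moved in opposite directions under 4T1-CM. The 240 bases that end 10 bases before the RefSeq start (GRCm38.p6) are shown for both, and for Itga5, which of the 10 genes described had the largest change outside the β2 family in the additive fit. Capitals mark matches on either strand to GAGGAA, the core that the myeloid factor PU.1 binds, or to GCGTG, the core bound by AHR.
Itgam, chr7:128062390-128062629, plus strand: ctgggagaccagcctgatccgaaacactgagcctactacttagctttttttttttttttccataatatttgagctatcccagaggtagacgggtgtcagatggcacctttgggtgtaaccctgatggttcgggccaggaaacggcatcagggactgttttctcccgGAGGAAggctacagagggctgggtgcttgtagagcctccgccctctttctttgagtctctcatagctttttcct
Itgax, chr7:128129300-128129539, plus strand: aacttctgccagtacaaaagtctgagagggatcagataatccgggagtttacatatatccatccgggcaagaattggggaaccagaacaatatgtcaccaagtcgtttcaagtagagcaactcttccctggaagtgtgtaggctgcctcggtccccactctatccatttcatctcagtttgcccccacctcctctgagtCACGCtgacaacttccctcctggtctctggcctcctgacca
Itga5, chr15:103366802-103367041, minus strand: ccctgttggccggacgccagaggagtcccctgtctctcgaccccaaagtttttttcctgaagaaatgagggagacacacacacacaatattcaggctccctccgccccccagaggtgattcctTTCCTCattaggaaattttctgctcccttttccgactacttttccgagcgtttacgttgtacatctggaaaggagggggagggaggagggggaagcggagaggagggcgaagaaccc
The Itgam window held GAGGAA 84 bases before the start, the Itga5 window held it on the other strand (TTCCTC) 127 bases before the start, and the Itgax window held the AHR core on the other strand (CACGC) 51 bases before the start. Of the 10 subunits, 7 had a promoter in the RefSeq table. GAGGAA was in 3 of these 7 windows (Itgam, Itga5 and Itgav) and in 22.3% of all 32851 windows of this length, GCGTG was in 2 (Itgax and Itgb5) and in 27.1% of all, and the STAT motif TTCNNNGAA was in 0 of 7 and in 6.77% of all. These short motifs are common, and a match describes letters, not binding.

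Within the β2 family, RNA of the αX chain was lower and RNA of the αL and αM chains was higher with 4T1-CM. Coordinates here and below are those of the file and match the GRCm38 annotation. Itgax (ENSMUSG00000030789, chr7:128129547-128150657, plus strand) had 37791 reads with DMSO and 39444 with CH223191 in normal medium, against 14031 and 12849 in 4T1-CM. Both 4T1-CM libraries lay well under both normal medium libraries, 2.96-fold lower with DMSO and 3.14-fold lower with CH223191, that is log2 ratios of -1.56 (95% interval -1.59 to -1.54) and -1.65 (-1.68 to -1.62). In the additive edgeR fit Itgax fell, with a log2 change of -1.61 and an FDR of 3.26e-06. It was the 47th of the 13715 genes by mean CPM, so that this fall concerned one of the most abundant transcripts of the cells. The 6 dendritic cell markers summed to 2.32 and 1.13 CPM in normal medium and 3.77 and 3.20 in 4T1-CM. The eosinophil markers were lower in 4T1-CM, with 15.8 and 13.9 CPM against 6.0 and 5.42, all from Siglecf. So were the B cell markers, with 20.2 and 34.3 CPM against 7.94 and 5.29, nearly all from Ighm. The part of these cells in the level of Itgax was not tested.

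Itgal (ENSMUSG00000030830, chr7:127296260-127335138, plus strand) codes for αL, the chain of LFA-1, which binds ICAMs. In normal medium it had 566 reads with DMSO and 535 with CH223191, against 1925 and 1561 in 4T1-CM. The media did not overlap, and the ratios were 3.10-fold with DMSO (log2 1.63, 1.5 to 1.77) and 2.86-fold with CH223191 (log2 1.51, 1.37 to 1.66). Itgal rose by 1.57 in the additive edgeR fit (FDR 7.16e-06).

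Itgam (ENSMUSG00000030786, chr7:128062640-128118491, plus strand) codes for αM, the chain of the complement receptor Mac-1. Its reads were 2541 and 2790 in normal medium and 4648 and 4270 in 4T1-CM, each time with DMSO first. Both 4T1-CM libraries were higher, by 1.67-fold with DMSO (log2 0.74, 0.67 to 0.81) and by 1.5-fold with CH223191 (log2 0.58, 0.51 to 0.65), short of the 2-fold used for calls between libraries. The additive edgeR fit gave a rise of 0.66 (FDR 0.00279).

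The β2 chain itself, Itgb2 (ENSMUSG00000000290, chr10:77530252-77565708, plus strand), was the most abundant of the 10 and the 22nd of all genes by mean CPM. It had 48491 and 58859 reads in normal medium and 41114 and 38349 in 4T1-CM. The 4T1-CM libraries were lower, by 1.30-fold with DMSO (log2 -0.37) and 1.57-fold with CH223191 (log2 -0.65), and Itgb2 fell by 0.51 in the additive edgeR fit (FDR 0.00687). Its 2 normal medium libraries differed among themselves by a log2 ratio of 0.28 (0.27 to 0.30), and Itgb2 is the shortest of the 10 genes at 3052 bases. With the trend on gene length removed, the 4T1-CM ratios were -0.32 and -0.52, and the ratio of the normal medium libraries was 0.23.

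**Figure D2:**
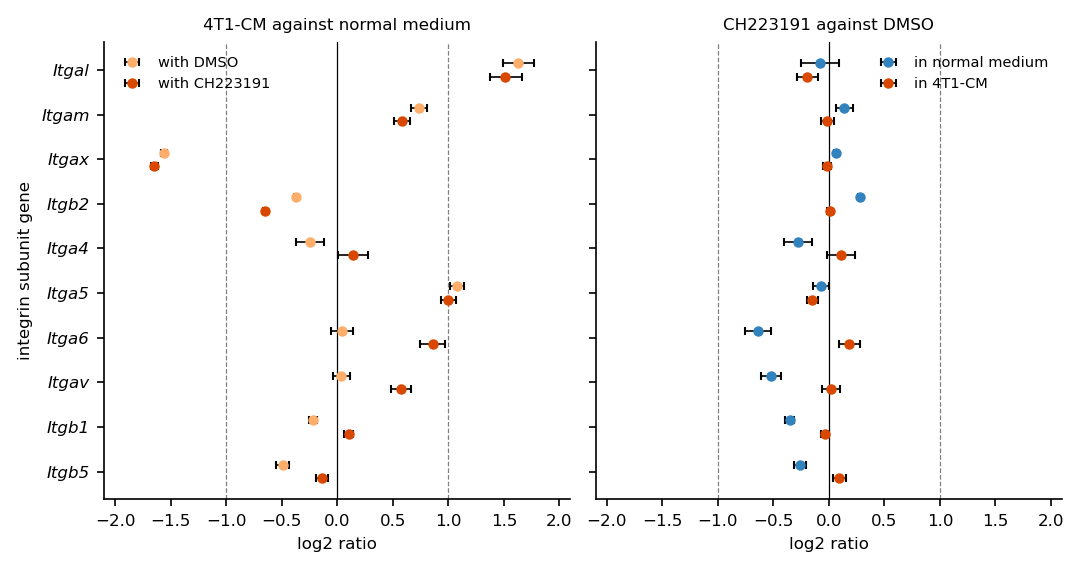
Log2 ratio of each subunit for 4T1-CM against normal medium (left) and for CH223191 against DMSO (right), with the exact 95% counting interval as bars and dashed lines at 2-fold. Itgal and Itga5 lie at or beyond 2-fold higher and Itgax beyond 2-fold lower under 4T1-CM, and no subunit reaches 2-fold under CH223191.

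Levels per length show how the mixture of RNAs for β2 partners moved. Protein and the pairing of chains were not measured in these libraries. Divided by the gene length that the file gives, Itgax was at 494 (DMSO) and 516 (CH223191) CPM per kilobase in normal medium and at 167 (DMSO) and 165 (CH223191) in 4T1-CM. On the same scale and in the same order Itgam was 31.7, 34.9, 52.9 and 52.3, and Itgal 5.41, 5.12, 16.7 and 14.6. Itgax thus made up 93.0% and 92.8% of the summed level of Itgal, Itgam, Itgax and Itgad in normal medium and 70.6% and 71.1% in 4T1-CM. The share of Itgam went from 5.98% and 6.28% to 22.4% and 22.6%, and that of Itgal from 1.02% and 0.920% to 7.08% and 6.32%.

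The level of Itgam is uncertain, because 3450 of its 5024 exon bases (68.7%) are also exon bases of Gm49368, a gene model on the same strand that runs from Itgam toward Itgax. Gm49368 itself was listed with 4 to 12 reads, against 2541 to 4648 of Itgam, so reads in shared exons were hardly counted for both genes. Whether they were dropped or given to Itgam alone is not stated for these libraries. If they were dropped, the reads of Itgam come from its other 1574 bases, and the whole length understates its level. Its level would then be 101, 112, 169 and 167 CPM per kilobase in the order above. With exon bases of other genes left out of every length, Itgax made up 82.2% and 81.6% of the pool in normal medium and 47.4% and 47.6% in 4T1-CM, and Itgam 16.9%, 17.61%, 47.9% and 48.2%. The ratio of Itgax to Itgam per length was 15.6, 14.8, 3.16 and 3.15 by the whole length and 4.87, 4.63, 0.989 and 0.986 by the bases of Itgam alone. Under either length the ratio was lower in both 4T1-CM libraries, while which of both chains was the more abundant there depended on the length. The 50-base words that Itgax shares with other genes (8.02% of its words) all lie in Itgad, which had 7 reads or fewer in each library.

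**Figure D3:**
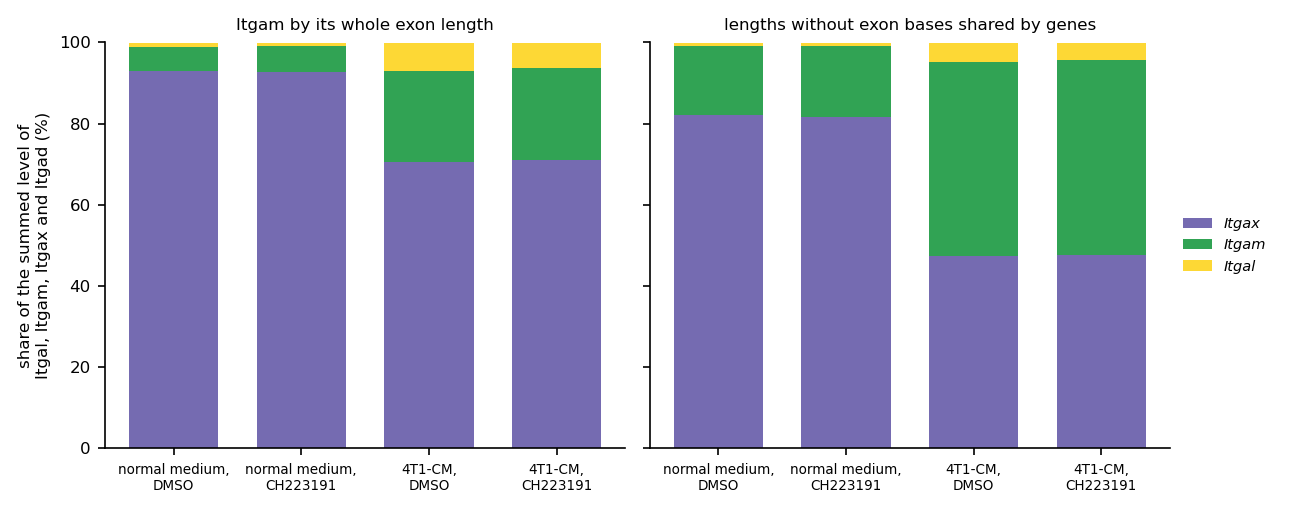
Share of Itgax, Itgam and Itgal in the summed level per length of the α chains that pair with β2, in percent, for the 4 libraries, by the whole exon length (left) and with exon bases covered by another gene left out (right). Itgad is too low to be seen. Itgax falls from 93.0% to 70.6% on the left and from 82.2% to 47.4% on the right between the DMSO libraries.

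The summed level per length of these α chains was lower in 4T1-CM, at 237 and 232 CPM per kilobase against 531 and 556 in normal medium (whole lengths). Itgb2 stood at 997, 1213, 770 and 774 CPM per kilobase, so that the ratio of Itgb2 to Itgal, Itgam and Itgax together was 1.88 and 2.18 in normal medium and 3.25 and 3.34 in 4T1-CM. Without shared exon bases that ratio was 1.66 and 1.92 against 2.18 and 2.23. In bulk RNA, fewer cells of a type and less RNA per cell cannot be told apart. The markers of neutrophils, cells that also carry αM and αL with β2, summed to 67.6, 74.6, 242 and 181 CPM over the 9 genes. Most of that sum lay in Csf3r, Mmp8 and S100a8, each higher in 4T1-CM. S100a8 had 99 and 190 reads in normal medium against 560 and 412. Mmp8 had 35 and 21 against 2142 and 759, and Csf3r 929 and 959 against 1521 and 1759. Ly6g, S100a9 and Retnlg had 0 reads in every library, and Cxcr2 had 12, 9, 2 and 0. The sum of the macrophage markers, most of it from Lyz2, was higher in 4T1-CM too. Single markers varied, as Cd68 was at 2055 CPM both in normal medium with CH223191 and in 4T1-CM with DMSO. The mitochondrial share was also higher in 4T1-CM. The part of these differences in the integrin results was not tested.

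Itgam and Itgax thus took opposite courses at 1 locus. Between them lies the end of Gm49368 and a pseudogene, Gm45700, with no reads. Within 140 kilobases of the start of Itgax, the other genes with more than 3 reads in every library were Pycard before Itgam, and 9130023H24Rik, Armc5 and Tgfb1i1 after Itgax, beside Gm49368. Itgad, the α chain that follows Itgax after 3718 bases, had 7, 0, 2 and 2 reads. Itgal lies on the same chromosome, 727501 bases before Itgam.

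**Figure D4:**
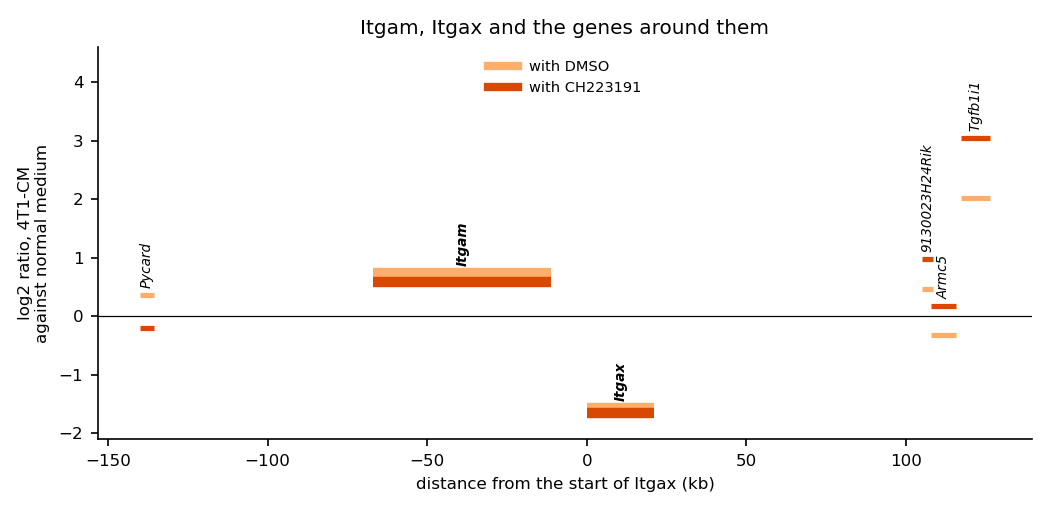
Log2 ratio for 4T1-CM over normal medium in the presence of DMSO or CH223191, for genes within 140 kilobases of the start of Itgax that have more than 3 reads in every library, drawn from the start to the end of each gene by distance from the start of Itgax. Itgam lies at 0.74 and 0.58 and Itgax at -1.56 and -1.65. Gm49368, which overlaps Itgam and had 4 to 12 reads, is not drawn.

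Of the chains α4, α5, α6 and αV, the fibronectin receptor chain α5 rose and the other 3 did not pass the test. Itga5 (ENSMUSG00000000555, chr15:103344286-103366763, minus strand) had 3007 reads with DMSO and 2853 with CH223191 in normal medium, against 6973 and 5831 in 4T1-CM. The media did not overlap, and the ratios were 2.11-fold with DMSO (log2 1.08, 1.02 to 1.14) and 2.0-fold with CH223191 (log2 1.0, 0.94 to 1.07). Itga5 rose by 1.04 in the additive edgeR fit (FDR 0.000142). With CH223191 its ratio sat on the 2-fold line, so that 5 of the alternative settings in the closing section put it just under. The 5 fibroblast markers summed to 57.3 and 27.0 CPM in normal medium and 145 and 123 in 4T1-CM. Their part in the value of Itga5 was not tested.

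Itga4 (ENSMUSG00000027009, chr2:79255426-79333123, plus strand), a chain that binds VCAM-1 and fibronectin, had 1076 and 885 reads in normal medium and 995 and 996 in 4T1-CM, again with DMSO first. The media overlapped, with log2 ratios of -0.25 with DMSO and 0.14 with CH223191 (FDR 0.786 in the additive edgeR fit). Itga4 is the longest of the 10 genes, and with the length trend removed both ratios were negative, at -0.38 and -0.14. Itga6 (ENSMUSG00000027111, chr2:71745616-71858416, plus strand), a laminin receptor chain, had 1552, 995, 1749 and 1843 reads in the same order. Its 4T1-CM libraries were both higher than both normal medium libraries, but by unlike amounts, with log2 ratios of 0.04 and 0.86, and it did not pass (log2 0.45, FDR 0.0768). With the length trend removed the ratios of Itga6 were -0.06 and 0.67.

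Itgav (ENSMUSG00000027087, chr2:83724397-83806916, plus strand), the chain of the vitronectin receptors, had 2383, 1659, 2683 and 2520 reads. The ratios were 0.04 and 0.57, with FDR 0.144 in the additive edgeR fit, and the low library was again normal medium with CH223191. With the length trend removed they were -0.08 and 0.34, so that the direction with DMSO turned. In the pool of α4, α5, α6 and αV, the share of Itga5 per length was 56.4% and 63.8% in normal medium and 73.3% and 69.9% in 4T1-CM, and that of Itgav 20.5%, 17.0%, 13.0% and 13.9%. As shares of reads, without division by length, Itga5 had 37.5%, 44.6%, 56.2% and 52.1% and Itgav 29.7%, 25.95%, 21.6% and 22.5%, with the same direction between the media. Exon bases of Cerkl on the other strand cover 8.04% of those of Itga4, and Gm13684 covers 5.9% of those of Itgav, with 20 to 26 reads of Cerkl and at most 1 of Gm13684 in a library. The summed level of the pool was 67.8, 57.0, 110 and 104 CPM per kilobase, and most of the difference between media was that of Itga5.

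Neither Itgb1 nor Itgb5 passed the test. Itgb1 (ENSMUSG00000025809, chr8:128685654-128733200, plus strand) had 12006, 9369, 11326 and 10271 reads, the media overlapped, and the log2 ratios were -0.22 with DMSO and 0.10 with CH223191 (FDR 0.761 in the additive edgeR fit). Itgb5 (ENSMUSG00000022817, chr16:33829665-33949338, plus strand), which with αV binds vitronectin and serves in the uptake of apoptotic cells, had 5989, 4989, 4672 and 4630 reads. Both 4T1-CM libraries were lower, with log2 ratios of -0.49 and -0.14, and Itgb5 did not pass (log2 -0.32, FDR 0.10). With the length trend removed its ratios were -0.47 and -0.06. Per length, Itgb1 stood at 144 to 185 and Itgb5 at 75.1 to 106 CPM per kilobase.

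Counted over the 10 genes, 2 were at least 2-fold higher (Itgal and Itga5) and 1 at least 2-fold lower (Itgax) in 4T1-CM with DMSO, beside 12.2% and 6.12% of all 13715 genes. The same 2 and 1 were called with CH223191, beside 12% and 7.86% of genes, and so in both comparisons, beside 8.18% and 3.38%. In the additive edgeR fit 3 of the 10 rose (Itgal, Itgam and Itga5) and 2 fell (Itgax and Itgb2), beside 16.4% and 16.2% of genes. These calls depend on the libraries. With medium as the single term the edgeR fit called the same number, 3 and 2, but it called other numbers with a library left out in turn. Without normal medium and DMSO it called 5 and 2, beside 20.5% and 21.9% of all genes, and without normal medium and CH223191 3 and 4, beside 19.5% and 19.3%. Without 4T1-CM and CH223191 it called 1 and 0, beside 1.34% and 0.153%, and the 1 was Itgal with an FDR of 0.0435. Without 4T1-CM and DMSO the edgeR fit called 0 and 0, as it called 0 of all 13715 genes (3196 of them, and 4 of the 10, had an unadjusted p under 0.05, and no other tool was run), and the FDR of the 5 genes ran from 0.108 (Itgal) to 0.255 (Itgb2). In each of these fits 1 medium has a lone library, which is assumed to vary like the pair of the other medium. The spread comes from the 4T1-CM pair in the fits without a normal medium library, where more genes were called, and from the normal medium pair in those without a 4T1-CM library. With so few members the counts are near the shares of all genes, so the list as a whole was not set apart by them. The median log2 ratio of the 10 was -0.09 with DMSO and 0.36 with CH223191, where that of all genes was 0.01 and 0.02. With the length trend removed the median of the 10 was -0.15 with DMSO and 0.24 with CH223191.

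By whole gene length, the order of the levels per length began with Itgb2, Itgax and Itgb1 in all 4 libraries and ended with Itga4. Below Itgb1 came Itgb5, Itga5 and Itgam in normal medium, while in 4T1-CM Itga5 and Itgb5 were close (80.8 and 75.1 CPM per kilobase with DMSO, 72.8 and 80.2 with CH223191) and their order turned with the library. Itgal moved from the place before last, under Itgav and Itga6, to one above them. With exon bases of other genes left out, Itgav would be above Itgal in 4T1-CM with CH223191, at 15.3 against 14.6. By the exon bases that it shares with no other gene, Itgam would stand above Itga5 in normal medium and above Itgax and Itgb1 in 4T1-CM. In normal medium its order with Itgb5 would turn with the library. Itgam would be at 101 against 106 with DMSO and at 112 against 88.3 with CH223191. With no replicate, the spread behind these ranks is unknown. The 10 genes together took 0.743% and 0.759% of the reads in normal medium and 0.513% and 0.507% in 4T1-CM.

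CH223191 gave no called subunit in either medium. In normal medium 0 of the 10 were at least 2-fold higher and 0 lower than with DMSO, beside 4.84% and 3.31% of genes, and in 4T1-CM 0 and 0, beside 2.8% and 2.62%. For the inhibitor term the edgeR fit called 0 of the 10 in each direction, where it called 10 genes higher (0.0729%) and 1 lower (0.00729%) among all genes. At an unadjusted p under 0.05 it held 0 of the 10 and 880 of all genes, and the Wald test of DESeq2 called 0 of the 10 and 14 of all. The FDR of the 10 ran from 0.842 (Itgav) to 0.977 (Itgax). This does not show that the inhibitor left them alone, since the fit averages both media and has 1 residual degree of freedom.

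In 4T1-CM the 10 ratios of CH223191 to DMSO lay between -0.19 (Itgal, -0.29 to -0.10) and 0.18 (Itga6, 0.09 to 0.28). In normal medium they spread more. Itga6 was at -0.64 (-0.75 to -0.52), Itgav at -0.52 (-0.61 to -0.43), Itgb1 at -0.35, Itga4 at -0.28 and Itgb5 at -0.26, all lower with CH223191. Itgal at -0.08 (-0.25 to 0.10) and Itga5 at -0.07 (-0.15 to 0.00) had intervals that include 0, while Itgb2 at 0.28, Itgam at 0.14 and Itgax at 0.07 were higher. The median of the 10 was -0.17 there, against -0.00 between the 4T1-CM libraries, and that of all genes was 0.00 in both.

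In the same library the sum of the 5 fibroblast markers was lowest, with 57.3, 27.0, 145 and 123 CPM in the 4 libraries in the usual order. Col1a1, Col1a2 and Col3a1 were lowest there, Dcn was lowest in normal medium with DMSO, and Lum had 3 reads in that library and 0 in the others. Long genes were also lower in that library than with DMSO, and Itga4, Itgav and Itga6 are the longest of the 10 at 13978, 10744 and 9025 bases. With the trend on length removed, Itga6 was at -0.56, Itgav at -0.43, Itgb1 at -0.37, Itgb5 at -0.29 and Itga4 at -0.18. The part of fibroblast RNA in these values was not tested.

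The response to 4T1-CM with CH223191 minus that with DMSO was 0.82 for Itga6 (counting interval 0.67 to 0.97), 0.54 for Itgav (0.42 to 0.66), 0.39 for Itga4, 0.35 for Itgb5 and 0.32 for Itgb1, on the log2 scale. For the β2 family it was -0.28 for Itgb2, -0.15 for Itgam, -0.12 for Itgal and -0.08 for Itgax, and for Itga5 it was -0.08 (-0.17 to 0.01). These differences rest on 1 library each and were not tested against replicate error. With the length trend removed they were 0.73 for Itga6, 0.42 for Itgav, 0.25 for Itga4, 0.40 for Itgb5 and 0.34 for Itgb1. A small gap between both responses favours a call in the additive fit, whose residual it is, so small gaps among the genes that passed it say nothing further.

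**Figure D5:**
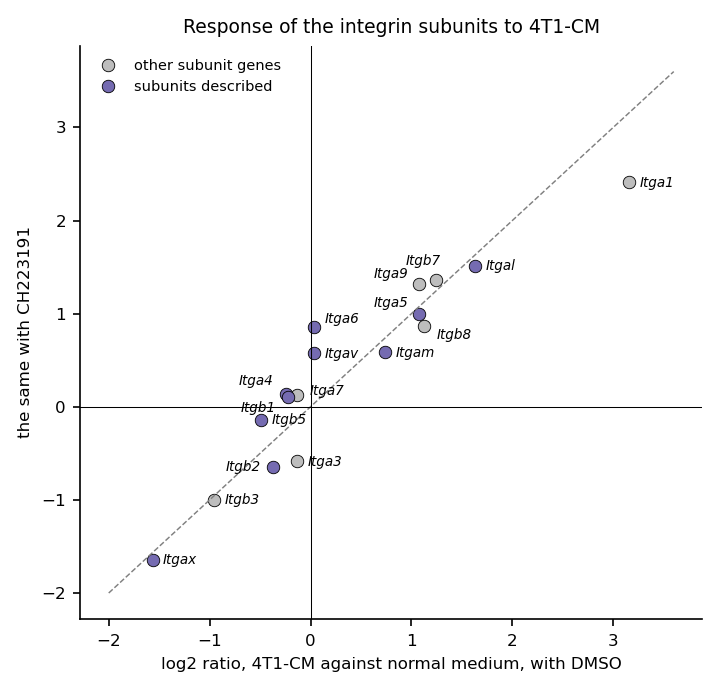
Log2 ratio of 4T1-CM against normal medium with DMSO (horizontal axis) and with CH223191 (vertical axis) for the 10 subunits described and for other integrin subunits with more than 3 reads in every library. The dashed line marks equal ratios. Itga6 and Itgav lie farthest above it among the 10, and Itgax, Itgal, Itgam and Itga5 lie close to it.

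Of the other 16 integrin subunit genes, 9 had at least 10 reads in a library and 7 did not (Itga8, Itga10, Itga11, Itgad, Itgae, Itgb4 and Itgb6). In the additive edgeR fit 3 of the 9 rose and 1 fell, beside 16.4% and 16.2% of all genes. These calls were lost when either 4T1-CM library was left out, as were nearly all calls over all genes. In both media comparisons 5 of the 9 were at least 2-fold higher and 0 lower, beside 8.18% and 3.38%. This count includes Itga2 and Itga2b, which had 2 to 4 reads in the normal medium libraries. They reached 10 reads in 4T1-CM alone, so the filter kept them only through the medium where they were higher. For these genes no fold is given in both comparisons, since they had 3 reads or fewer in a normal medium library. The others of the 5 were Itga1, Itga9 and Itgb7. Itgb7, the alternative partner of α4, had 671 and 595 reads in normal medium and 1749 and 1566 in 4T1-CM, a rise of 1.31 (FDR 2.56e-05), while Itga4 itself did not pass. Itgb3, another partner of αV, had 1080 and 1011 reads against 610 and 516, a fall with a log2 change of -0.98 (FDR 0.000193).

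The collagen receptor chain Itga1 had 19 and 32 reads in normal medium and 191 and 176 in 4T1-CM, and rose by 2.77 (FDR 2.22e-05). Itga9 had 138 and 119 reads against 319 and 304, and rose by 1.20 (FDR 0.000475). Itgb8 had 16, 10, 39 and 19 reads, and Itga2, Itga2b, Itga3 and Itga7 had 2 to 15 in any library, and these 5 did not pass. The sum of the fibroblast markers was also higher in 4T1-CM, and its part in the value of Itga1 was not tested.

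Many genes for ligands of these receptors rose with 4T1-CM, in a list chosen with earlier results of these data known. Of 39 ligand genes listed, 26 had enough reads, and 17 rose and 1 fell in the additive edgeR fit, beside 16.4% and 16.2% of all genes. Without 4T1-CM and CH223191 most of these calls were lost, and without 4T1-CM and DMSO all of them. Calls over all genes were lost likewise. In both media comparisons 11 were at least 2-fold higher and 0 lower, beside 8.18% and 3.38%. Of these 11, Tgfbi, Thbs1, C3, Icam1, Fn1 and Edil3 had a mean of at least 5 CPM, and the others lay under it. The filter of 10 reads in any library can keep a gene through 4T1-CM alone, and it applied to all genes alike. The list holds matrix genes that fibroblasts also make, and the sum of the fibroblast markers was higher in 4T1-CM as well, whose part in these values was not tested. The median log2 ratio of the 26 was 0.75 with DMSO and 0.98 with CH223191. Tgfbi, an RGD-bearing matrix protein, had 46 and 34 reads in normal medium and 10571 and 8072 in 4T1-CM. Thbs1 (thrombospondin) had 615 and 590 against 16561 and 15619, and C3, whose fragment iC3b is bound by αM and αX with β2, had 161 and 167 against 3862 and 3555.

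Fibronectin, Fn1, the ligand of α5β1, had 14572 and 17381 reads in normal medium and 39547 and 48430 in 4T1-CM, a rise of 1.38 (FDR 9.96e-06), so that receptor chain and ligand rose together. Icam1, bound by αL with β2, rose likewise, from 558 and 482 reads to 1765 and 1511 (log2 1.57, FDR 7.07e-06). Edil3, bound by αV, had 86 and 59 against 226 and 222. Spp1 (osteopontin), the ligand with the highest mean CPM, had 103623, 116341, 148009 and 165870 reads and rose by 0.43 (FDR 0.00715).

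Of 44 genes for integrin activation and for adaptors on the cytoplasmic side, 42 had enough reads, and 12 rose and 10 fell in the additive edgeR fit, beside 16.4% and 16.2% of all genes. Without 4T1-CM and CH223191 nearly all of these calls were lost, and without 4T1-CM and DMSO all of them, as with calls over all genes. In both media comparisons 6 were at least 2-fold higher and 2 lower, beside 8.18% and 3.38%. Of these 6, Dab2, Cyth1, Fgr and Fyb had a mean of at least 5 CPM, and the others lay under it. Talin, Tln1, which binds β tails and activates the receptor, had 28669 and 27767 reads in normal medium and 13733 and 12759 in 4T1-CM, a log2 change of -1.18 (FDR 3.30e-05). Dok1, which competes with talin for β tails, fell as well, from 1481 and 1560 reads to 688 and 630. Filamin, Flna, another binder of β tails, had 25139, 29030, 21462 and 20134 reads (log2 -0.46, FDR 0.0128).

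Among those that rose, the endocytic adaptor Dab2 had 513 and 465 reads against 2430 and 2280, and Cyth1, a regulator of αL with β2, 744 and 800 against 2330 and 2280. The Src-family kinase Fgr, which acts downstream of β2, had 358 and 508 reads against 1178 and 1205, and the adaptor Fyb 1288 and 1296 against 2887 and 3153. These 4 genes were named because they were at least 2-fold higher in both media comparisons, so the gap between their media follows from that choice.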

How the data were processed

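RNA of peritoneal macrophages was sequenced in 4 libraries, 1 for each combination of medium and inhibitor, without replicates. The values the authors deposited are raw counts of reads, 1 column a library, beside gene coordinates and lengths. The submitters' processing notes name HISAT2 2.0.5 and DESeq2. The counting program, the genome build and the use of strand are not given in the sources used here for these libraries. The study's methods name the counting program featureCounts, but for RNA-seq of alveolar macrophages. Of the genes shared with GENCODE M21 (GRCm38), 53499 of 54409 had identical coordinates, and so did all 10 subunits.

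Libraries were scaled by TMM (edgeR 4.0.16, R 4.3.3), a prior count of 0.5 was added to ratios, and no fold was given against a library with 3 reads or fewer of a gene. Tests were quasi-likelihood fits adjusted by Benjamini-Hochberg. The alternatives were DESeq2 1.42.0 size factors and its Wald test, total counts, a prior count of 5, no filter, a filter of 10 reads in every library, protein-coding genes by themselves, medium as the single term and reads without division by length. Removal of the trend on gene length (lowess with a fraction of 0.3), lengths without shared exon bases and edgeR fits of medium alone with each library left out in turn were added after seeing the data. The procedure was tested on simulated data in which fewer genes changed with 4T1-CM than were called here and CH223191 had no effect. That test does not cover how the calls depend on single libraries. Members and lists were chosen with earlier results of these data known. Every subunit was named, with other subunits of at least 10 reads in a library, the ligand and adaptor genes that passed 2-fold in the same direction in both media comparisons with a mean of at least 5 CPM (at most 8 a list), and the 2 of each list with the highest mean CPM. Further markers were summed for B cells (5.29 to 34.3 CPM, nearly all Ighm), eosinophils (5.42 to 15.8), platelets (at most 1.77), epithelial tumour cells (at most 1.35), mesothelial cells (at most 0.629), NK cells (at most 0.343) and mast cells (at most 0.246).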

Additional observations from a re-analysis of the deposited data

Results flagged for a closer look

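For a pair of subunits the counting intervals of CH223191 against DMSO lay on opposite sides of 0 in the 2 media. For Itga6 the log2 ratio in normal medium was -0.64, where CH223191 was lower, and that with 4T1-CM was 0.18. For Itgb5 the 2 values were -0.26 in normal medium and, with 4T1-CM, 0.095. Each value compares 1 library with 1 library, and the difference between the media was not tested.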

How the results depend on the processing

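The additive fit compares the media within each inhibitor state, and the labels give no further pairing of the cultures. With 1 library left out in turn and medium as the single term, chosen after seeing the data, the fit called 0 to 5 of the 10 genes higher and 0 to 4 lower, beside 0% to 20.5% and 0% to 21.9% of all genes, with no call without the library of 4T1-CM and DMSO and only Itgal without that of 4T1-CM and CH223191. Recomputed under 7 alternatives, 259 of 280 ratios of the 10 genes stayed within their counting interval and 21 moved beyond it. The number of genes at least 2-fold higher in 4T1-CM with CH223191, and in both media comparisons, was 1 in place of 2 under DESeq2 size factors, a prior count of 5, no filter, protein-coding genes by themselves and the length trend removed, since Itga5 lay at 1.0. The median ratio of the 10 with CH223191 was 0.24 with the length trend removed. Under the other 6 alternatives no ratio moved by more than 0.0576. Of the 280, 8 changed sign, all with a main value within 0.04 of 0 except Itga4 in 4T1-CM against normal medium with CH223191, which was at -0.14 with the length trend removed. With all 4 libraries, the additive fit called 3 genes higher and 2 lower under 6 of its 7 alternatives and 4 and 2 with no filter, and the highest FDR of the 5 genes over these was 0.0158 (Itgb2, edgeR with medium alone). Itga6 passed without the filter (FDR 0.0129) but in no other fit of all 4 libraries (up to 0.161). By counting alone, the widest interval of a media comparison among the 10 genes was that of Itgal with CH223191 (1.37 to 1.66). The spread between cultures is unknown.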

Other observations

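Tgfb1i1, an adaptor of the paxillin family that lies 117265 bases after the start of Itgax, had 16 and 8 reads in normal medium and 73 and 71 in 4T1-CM. It was chosen after its values were seen. Its log2 ratios were 2.02 with DMSO and 3.04 with CH223191, on few reads. Mmp8, one of the neutrophil markers, had 35 and 21 reads without 4T1-CM, and under 4T1-CM 2142 with DMSO and 759 with CH223191, and it was also named after its values were seen.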
